A study of Mus musculus with 8 samples.

Results

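The bile acid and organic anion transporters of the hepatocyte were examined as 10 genes, chosen by symbol from the 24451 genes in the table. They were 4 uptake carriers (Slc10a1, Slco1a1, Slco1a4 and Slco1b2), 3 canalicular pumps (Abcb11, Abcb4 and Abcc2) and 3 basolateral exporters (Abcc3, Abcc4 and Slc51b). Liver RNA came from the left lobe of C57BL/6 mice (C57BL/6J in the study's methods) aged 18 wk, which had been fasted for 6 h. The Brap LKO group (4 livers) carried a floxed Brap gene and a Cre transgene driven by the Albumin promoter, which acts in hepatocytes and also in cells of the biliary lineage. The control group, Brap F/F (4 livers), carried the same floxed alleles without Cre and is called wild type in the labels, so that a Cre transgene was present in only 1 of the groups. All mice were male according to the study's methods. The comparison asks how loss of Brap, a ubiquitin ligase, in the liver went with the mRNA of each transporter.

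Bile acids return to the liver in portal blood and are taken up across the sinusoidal membrane of hepatocytes, mainly by the sodium-dependent carrier NTCP and, together with other organic anions, by the OATP family. They leave across the canalicular membrane through ATP-driven pumps, while phospholipid and conjugated anions are exported beside them. Further exporters on the sinusoidal (basolateral) side return bile acids and conjugates to blood, and several of them are scarce in healthy liver.

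Values are normalized counts, that is, reads on a gene divided by a size factor for each liver. The depth was 26280884 to 33313914 reads on genes per liver. After division by the size factor the total was 27440741–28975099 in Brap LKO and 29964617–32729998 in Brap F/F, without overlap. Brap itself lay between 3641 and 4410 normalized counts in all 8 livers, but a gene-level count also covers exons outside the floxed exons and does not check the deletion. All 10 cholangiocyte markers had a log2 fold change above 0 in Brap LKO against Brap F/F, 2 of them past the limma threshold, and their summed level was 2220–4312 in Brap LKO and 1233–2308 in Brap F/F. None of their defining genes was at 0 in a Brap LKO liver, and Cftr was at 0 in 1 Brap F/F liver. Lymphocyte markers summed to 336–561 in Brap LKO and 240–325 in Brap F/F, without overlap. Most of each sum was Ptprc (251–417 and 171–234). All 8 lymphocyte markers lay above 0 (median log2 fold change 0.70), and 3 had groups that did not overlap. Of them, 0 were called by limma or edgeR, 4 were higher at an unadjusted limma p under 0.05 and DESeq2 called 2. Stellate cell and fibroblast markers lay above 0 in 9 of 10 cases (median log2 fold change 0.71, 1 called by limma and 4 by DESeq2) and summed to 7938–12480 and 5288–8788, and macrophage markers in 9 of 10 (0.39, 0 called by limma, 3 higher at an unadjusted p under 0.05 and 2 called by DESeq2), with sums of 6395–11703 and 6468–9039. All 7 sinusoidal endothelium markers lay above 0 (0.26, 0 called by limma, edgeR or DESeq2 and 0 at an unadjusted p under 0.05), with sums of 5932–8802 and 5124–7709. Of 9 pericentral genes 6 lay above 0 (0.29), and limma called 1 of them, Rhbg, higher (log2 fold change 0.94, adjusted p 0.0313). At an unadjusted limma p under 0.05, 5 pericentral genes were higher and 1 was lower, and DESeq2 called 2 higher. Of 9 periportal genes 4 lay above 0 and 5 below (-0.10), with 0 called by limma, edgeR or DESeq2 and 1 higher at an unadjusted limma p under 0.05. Hepatocyte markers lay below 0 in 6 of 8 cases, with a median log2 fold change of -0.31 (-0.22 without Brap F/F replicates 2 and 3, described next), 0 called by limma, edgeR or DESeq2 and 2 lower at an unadjusted limma p under 0.05. Their sum, most of which was Alb, was 2426071–3135707 in Brap LKO and 2919080–4136329 in Brap F/F, and Alb took 5.17–9.34% of reads. In bulk tissue, fewer hepatocytes and less transporter mRNA per hepatocyte cannot be told apart, and the part of other cell types in the results was not tested.

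Brap F/F replicates 2 and 3 stood apart from the other 6 livers. Male-biased liver genes summed to 52755–63340 in these livers and 85018–116630 in the others, female-biased genes to 1490–3086 and 414–1224, and targets of the xenobiotic receptors CAR and PXR to 143285–156479 and 82297–127777. Acute phase genes (0 of 10 called by limma) summed to 193416–220750 in Brap F/F replicates 2 and 3 and 210913–353734 in Brap LKO. Brap F/F replicates 1 and 4 held the highest acute phase sums, 378180 and 561982. Fits without replicates 2 and 3 therefore rest on these controls alone. For 4 of the 10 transporters (Slc10a1, Slco1a4, Abcc2 and Abcc3) both Brap F/F replicates 2 and 3 lay above the other 6, and for the remaining 6 they did not. Uptake members summed to 72621–78078 normalized counts in Brap F/F replicates 2 and 3 and to 55230–64201 in the other 6 livers. Canalicular members summed to 60716–63592 and 54104–57310, and basolateral exporters to 18892–21860 and 7911–14197. In each of the 3 roles these livers therefore held the highest sums, which are carried by the abundant members. They also held the highest total normalized counts, 32729998 and 31989584 against 27440741–30864194 in the other 6. Their hepatocyte marker sums were highest as well, 3488615–4136329 against 2426071–3371219. Most of each sum was Alb, at 3058028 and 2500570 in these livers and 1438250–2273907 in the others. Apoa2, Ttr and Tat were also highest in both of these livers, while Apoa1, Serpina1a, Fgb and Apob were not. The role sums were not rescaled to the total.

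With all 8 livers, 0 of the 9 members that could be tested passed an adjusted p of 0.05 by limma on log2(normalized count + 1). Over all 15352 genes tested, 0.664% were called higher and 0.104% lower in Brap LKO. edgeR also called 0 members, and DESeq2 on the recovered reads called 2, Abcc4 (higher) and Slco1a4 (lower), where it called 2.96% of all genes higher and 1.11% lower. At an unadjusted limma p under 0.05, 1 member was higher and 2 were lower, against 9.23% and 6.59% of all genes. The same 3 members, Slc10a1, Slco1a4 and Abcc4, had groups that did not overlap, a pattern seen in 5.48% of all genes as higher and 4.39% as lower. The median log2 fold change was -0.10 over the 9 members and -0.01 over all genes. The livers came from animals whose numbers in the labels form a lower and a higher series, with 3 Brap LKO against 1 Brap F/F in the first and 1 against 3 in the second, too few livers to test. The log2 ratio of Brap LKO to Brap F/F was -0.14 in the lower and -0.69 in the higher series for Slc10a1, -0.63 and -2.57 for Slco1a4, and 1.15 and 0.75 for Abcc4, signs that the lack of overlap over all 8 livers fixes.

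**Figure D1:**
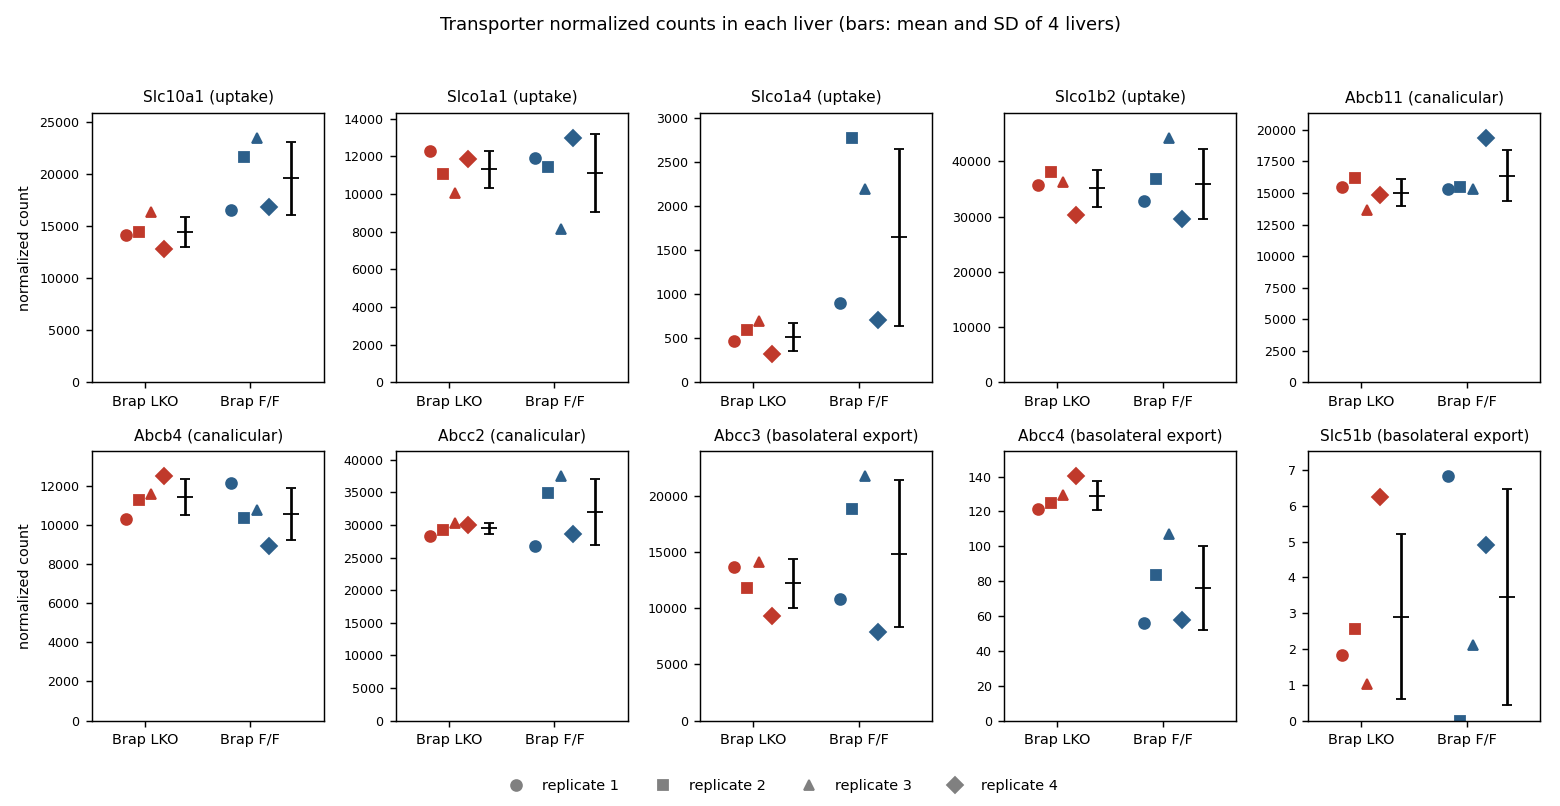
Normalized counts (y axis, from 0, a scale for each gene) of the 10 transporters in 4 Brap LKO (red) and 4 Brap F/F (blue) livers, with symbols for the replicate number and bars for mean ± SD. Slc10a1 and Slco1a4 points lie lower in every Brap LKO liver and Abcc4 points lie higher, while Brap F/F replicates 2 and 3 (square and triangle) lie at the top for Slco1a4 and Abcc3.

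Per kilobase of exon, the levels ran from 10670 normalized counts (Slc10a1) down to 0 (Slc51b). Exon length here joins the exons of all annotated transcripts of a gene, such as 9383 bases for Abcb4, whose longest coding sequence has 3828. The order of genes and their shares per kilobase depend on this length. Slc10a1 (6566 ± 658 in Brap LKO and 8907 ± 1585 in Brap F/F, SD, n = 4 each, in normalized counts per kilobase) and Slco1b2 (7120 ± 684 and 7286 ± 1279) were the most abundant and overlapped each other over the 8 livers. Abcc2 (3453 ± 99.0 and 3745 ± 596), Abcb11 (2920 ± 210 and 3181 ± 389), Abcc3 (2140 ± 381 and 2600 ± 1148) and Slco1a1 (2145 ± 185 and 2107 ± 397) followed, each overlapping the next in that order. Abcb4 (1216 ± 96.4 and 1122 ± 142) lay below all of these without overlap with Slco1a1. Slco1a4 (80.9 ± 25.2 and 257 ± 157) and Abcc4 (20.2 ± 1.31 and 11.9 ± 3.79) stood lower again, each apart from the gene above. Slc51b (4.10 ± 3.26 and 4.88 ± 4.26) was the lowest and overlapped Abcc4.

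**Figure D2:**
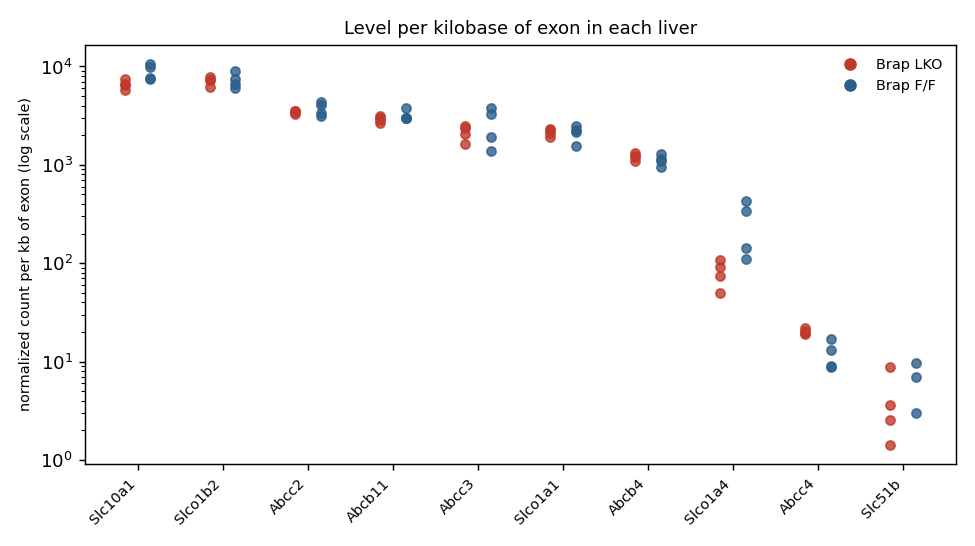
Normalized count per kilobase of exon (y axis, log scale) for each transporter in each liver, Brap LKO in red and Brap F/F in blue. Levels run from 10670 for Slc10a1 to below 10 for Slc51b, and the Brap F/F replicate with no Slc51b read is not drawn on the log axis.

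Slc10a1 encodes NTCP, the main sodium-coupled carrier of conjugated bile acids. Its normalized counts in Brap LKO replicates 1 to 4 were 14157, 14455, 16325 and 12813, and in Brap F/F replicates 1 to 4 they were 16498, 21599, 23464 and 16788. On this scale every Brap LKO liver lay below every Brap F/F liver, though the highest of the first group and the lowest of the second nearly met. The mean in Brap LKO was 0.737 of that in Brap F/F. The log2 fold change was -0.43 (SE 0.135, 95% interval -0.73 to -0.13), with an unadjusted p of 0.0105 and an adjusted p of 0.180 by limma, and the exact permutation test over the 70 arrangements gave p = 0.0286, the smallest it can give with 4 livers against 4. DESeq2 gave an adjusted p of 0.0527. Scaling every liver to the same total gave -0.27 (adjusted p 0.200 by limma), in a fit that moved the median of all genes to 0.15. Brap LKO replicate 3 then no longer lay below every Brap F/F liver. Without Brap F/F replicates 2 and 3 the log2 fold change was -0.21 (SE 0.108, adjusted p 0.374 by limma).

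Slco1a4 encodes an OATP carrier with a broad range of organic anions and steroid conjugates and is known as a gene induced through PXR. It was counted at 472, 593, 693 and 318 in Brap LKO replicates 1 to 4 and at 906, 2780, 2199 and 705 in Brap F/F replicates 1 to 4. All Brap LKO livers were lower than all Brap F/F livers, and replicates 2 and 3 of Brap F/F were by far the highest. The mean in Brap LKO was 0.315 of that in Brap F/F, and the log2 fold change was -1.49 (SE 0.434, 95% interval -2.47 to -0.52). The unadjusted p was 0.00687 and the adjusted p 0.156 by limma, the exact permutation p was 0.0286, and DESeq2 gave -1.67 with an adjusted p of 0.0333. Scaling every liver to the same total gave -1.34 (adjusted p 0.101 by limma), where Brap LKO replicate 3 no longer lay below every Brap F/F liver. Leaving out Brap F/F replicates 2 and 3 moved the log2 fold change to -0.68 (SE 0.275, adjusted p 0.260 by limma). Cyp2b10, a classical CAR target, was counted at 1483 and 657 in these livers and at 32.2–222 in the other 6, with a log2 fold change of -2.46 over all livers and -1.13 (adjusted p 0.353 by limma) without them. Its part in the Slco1a4 values was not tested.

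The remaining OATP genes differed by less than the spread between livers. Slco1a1, a male-predominant OATP, was counted at 12287, 11084, 10057 and 11847 in Brap LKO and at 11914, 11423, 8136 and 12994 in Brap F/F, with overlapping groups and the lowest level in Brap F/F replicate 3. Its log2 fold change was 0.04 (95% interval -0.28 to 0.36, adjusted p 0.902 by limma), and -0.14 without Brap F/F replicates 2 and 3. Slco1b2, the mouse counterpart of the human OATP1B carriers, was counted at 35816, 38068, 36248 and 30251 in Brap LKO and at 32919, 36819, 44279 and 29628 in Brap F/F. The groups overlapped fully, with a log2 fold change of -0.02 (95% interval -0.34 to 0.29, adjusted p 0.950 by limma), which turned to 0.16 without Brap F/F replicates 2 and 3.

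Shares of the 4 uptake carriers within each liver do not depend on the size factor. Of the summed level per kilobase, Slc10a1 took 40.0%, 39.9%, 44.2% and 40.9% in Brap LKO and 45.2%, 49.4%, 49.5% and 47.1% in Brap F/F. Slco1b2 took 45.1%, 46.8%, 43.8% and 43.0% in Brap LKO and 40.3%, 37.6%, 41.7% and 37.1% in Brap F/F. The share of Slc10a1 was thus lower, and that of Slco1b2 higher, in every Brap LKO liver. As the shares in each liver add up to a whole, a lower Slc10a1 share by itself raises the others. The counts of Slco1b2 overlapped between the groups (log2 fold change -0.02). Slco1a4 took 0.502% ± 0.128 (SD, n = 4) in Brap LKO and 1.33% ± 0.694 (SD, n = 4) in Brap F/F, also without overlap, whereas the shares of Slco1a1 overlapped. In Brap F/F replicates 1 and 4 alone, the Slco1a4 share was 0.852% and 0.678%. The summed level of the carriers was 15912 ± 1137 and 18557 ± 2585 per kilobase (SD, n = 4 each) and overlapped, with 16581 and 16218 in Brap F/F replicates 1 and 4. No test was run on the shares.

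**Figure D3:**
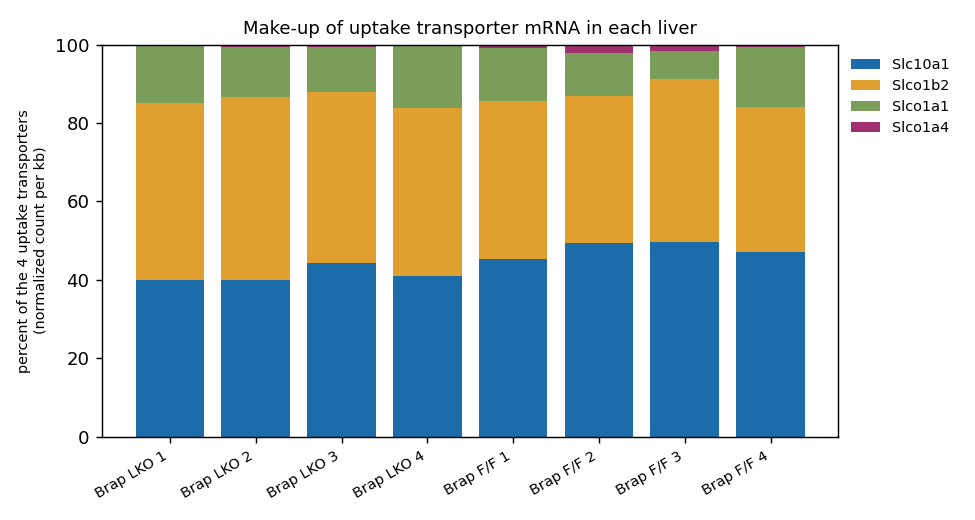
Percent of the summed normalized count per kilobase (y axis, 0 to 100) taken by each of the 4 uptake carriers in each of the 8 livers (x axis). Slc10a1 is below 45% in all Brap LKO livers and above 45% in all Brap F/F livers.

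Slco1a1 and Slco1a4 lie near each other on chromosome 6 and share coding sequence, so part of their reads cannot be assigned by sequence alone. The longest run in common between the transcripts Slco1a1-201 and Slco1a4-203 is 132 bases, in exons 6 and 7 of Slco1a1 (chr6:141925636-141932442, mm10, minus strand, spanning the intron) and exons 9 and 10 of Slco1a4 (chr6:141825086-141826258, minus strand). It is shown because it marks where the counts of these neighbours could be mixed. The shared bases are in capitals and 10 flanking bases on each side are in lower case.
Slco1a1: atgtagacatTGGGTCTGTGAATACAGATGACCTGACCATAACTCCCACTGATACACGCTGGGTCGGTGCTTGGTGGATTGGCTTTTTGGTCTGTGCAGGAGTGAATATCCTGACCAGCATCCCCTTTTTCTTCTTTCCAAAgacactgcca
Slco1a4: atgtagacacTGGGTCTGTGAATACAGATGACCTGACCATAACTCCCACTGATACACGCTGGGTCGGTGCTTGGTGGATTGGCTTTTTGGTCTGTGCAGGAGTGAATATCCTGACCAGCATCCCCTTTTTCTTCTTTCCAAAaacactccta
Of the 50-base windows along its transcript, 1.64% (87 of 5321) of Slco1a1 and 1.61% (103 of 6407) of Slco1a4 occurred in another gene, among them Slco1a5 and Slco1a6. Windows of Slco1b2 and Abcc3 shared 0 with another gene, and Abcb4 shared 2.87%, including windows of Abcb1a and Abcb1b. Slco1a4 was highest in Brap F/F replicates 2 and 3, where Slco1a1 was counted at 11423 and 8136, below its levels in the other Brap F/F livers. The first of these values lay inside the Slco1a1 range of Brap LKO, 10057–12287. Whether shared reads entered either count was not tested.

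The canalicular pumps differed by less than the spread between livers. Abcb11, the bile salt export pump BSEP, was counted at 15455, 16178, 13625 and 14846 in Brap LKO and at 15293, 15483, 15334 and 19372 in Brap F/F, where replicate 4 stood alone above the rest. Its log2 fold change was -0.12 (95% interval -0.35 to 0.11, adjusted p 0.593 by limma), and -0.0355 without that liver. Abcb4, the phosphatidylcholine floppase MDR2, was counted at 10299, 11265, 11581 and 12493 in Brap LKO and at 12138, 10330, 10741 and 8911 in Brap F/F. The groups overlapped and the log2 fold change was 0.12 (95% interval -0.12 to 0.36, adjusted p 0.597 by limma), and 0.0437 without Brap F/F replicate 4. Abcc2, the conjugate exporter MRP2, was counted at 28350, 29267, 30241 and 29971 in Brap LKO and at 26816, 34904, 37517 and 28558 in Brap F/F. Its Brap LKO livers were close together and fell inside the range of Brap F/F, with a log2 fold change of -0.10 (95% interval -0.38 to 0.17, adjusted p 0.697 by limma) that turned to 0.09 without Brap F/F replicates 2 and 3. Within the canalicular role, the share per kilobase of Abcb11 was 38.5% ± 2.38 in Brap LKO and 39.6% ± 5.18 in Brap F/F (SD, n = 4 each), and the shares of all 3 pumps overlapped.

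None of the basolateral exporters was called by limma. Abcc3 encodes MRP3, which exports glucuronides and bile acids to blood and is known to respond to xenobiotics. It was counted at 13610, 11821, 14067 and 9276 in Brap LKO and at 10850, 18808, 21750 and 7849 in Brap F/F, where the livers differed most from each other among the abundant members. Brap F/F held both the highest and the lowest values, so the groups overlapped, and the log2 fold change was -0.18 (95% interval -0.86 to 0.49, adjusted p 0.796 by limma). Without Brap F/F replicates 2 and 3 its direction turned, to 0.38 (SE 0.188, adjusted p 0.349 by limma).

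Abcc4 encodes MRP4, which co-exports bile acids with glutathione and is scarce in healthy liver. It was counted at 121, 125, 129 and 140 in Brap LKO replicates 1 to 4 and at 55.9, 83.4, 107 and 57.9 in Brap F/F replicates 1 to 4. Every Brap LKO liver exceeded every Brap F/F liver, and the Brap LKO values were close together. The mean was 1.69 times higher in Brap LKO, and the log2 fold change was 0.80 (SE 0.207, 95% interval 0.34 to 1.27). The unadjusted p was 0.00341 and the adjusted p 0.111 by limma, the exact permutation p was 0.0286, and DESeq2 gave 0.76 with an adjusted p of 0.0209. Scaling every liver to the same total gave 0.96 with an adjusted limma p of 0.0358, in a fit that called 2.99% of all genes higher and moved the median of all genes to 0.15. Leaving out Brap F/F replicates 2 and 3 gave 1.17 (SE 0.145, adjusted p 0.0188 by limma), in a fit that called 0.801% of all genes higher. Relative to the other basolateral exporters, Abcc4 took 0.964% ± 0.249 of the summed level per kilobase in Brap LKO and 0.484% ± 0.114 in Brap F/F (SD, n = 4 each), without overlap. Abcc3 made up 98.8% ± 0.462 and 99.2% ± 0.357 of this sum, so the share is in effect a ratio to Abcc3. Abcc3 was highest in Brap F/F replicates 2 and 3. In Brap F/F replicates 1 and 4 alone, the Abcc4 share was 0.455% and 0.650%.

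Slc51b encodes the beta subunit of the heterodimeric organic solute transporter and was near the limit of counting. Its reads were 2, 3, 1 and 6 in Brap LKO and 6, 0, 2 and 5 in Brap F/F, where a count of 0 allows up to 3 reads, and its mean normalized count was below the minimum of 5, so it was not tested. The groups overlapped. Of its exon bases, 91 (12.8%) overlap Rasl12 on the opposite strand, whose reads cannot be told apart where counting did not use strand. Its partner subunit Slc51a was counted at 0–2.55 in Brap LKO and 0–4.56 in Brap F/F.

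**Figure D4:**
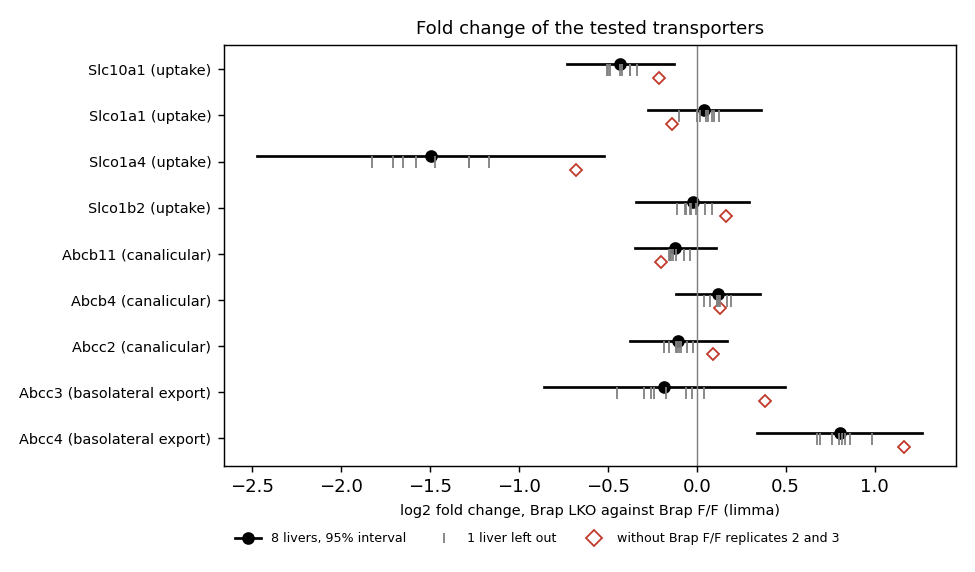
Log2 fold change of Brap LKO against Brap F/F (x axis) for the 9 tested transporters, from limma with its 95% interval (black), with each liver left out in turn (grey ticks) and without Brap F/F replicates 2 and 3 (open diamonds). Without these 2 livers Slco1a4 moves from -1.49 to -0.68, Slc10a1 from -0.43 to -0.21, Abcc4 from 0.80 to 1.17 and Abcc3 from -0.18 to 0.38.

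The promoters of the 3 genes whose groups did not overlap are shown as RefSeq windows (GRCm38.p6) of 250 bases before and 50 after the transcript start, on the gene's strand. Slc10a1 and Abcc4 each had 2 windows, of which 1 is printed, in each case the one with more motif matches. Abcc3 had no entry. Letters of 8 motifs were searched on both strands, and matches are in capitals. The nuclear receptor half-site was searched as AGGTCA, which 16.3% of the 32851 promoter windows hold. The core of the NRF2 element was searched as TGACNNNGC and is present in 12.4% of the windows. For the TEAD site the letters were GGAATG, found in 14.7% of promoters, and for the AHR site core they were GCGTG, found in 32.4% of them. The HNF1 half-site was read as GTTAAT, with matches in 7.10% of all promoters, and the C/EBP site as TTGCNNAA, with matches in 10.8% of them. The FOXA site was TGTTTAC, which occurs in 3.65% of the promoter windows, and the TATA box was TATAAA, which occurs in 13.6% of them.
Slc10a1 (chr12:80968030-80968329, minus strand): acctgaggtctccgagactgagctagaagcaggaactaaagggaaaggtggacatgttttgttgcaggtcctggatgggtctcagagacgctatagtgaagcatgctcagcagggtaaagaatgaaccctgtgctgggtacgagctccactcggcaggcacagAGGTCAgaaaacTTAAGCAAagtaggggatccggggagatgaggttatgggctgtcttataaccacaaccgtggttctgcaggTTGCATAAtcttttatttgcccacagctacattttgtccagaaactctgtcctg
Slco1a4 (chr6:141856171-141856470, minus strand): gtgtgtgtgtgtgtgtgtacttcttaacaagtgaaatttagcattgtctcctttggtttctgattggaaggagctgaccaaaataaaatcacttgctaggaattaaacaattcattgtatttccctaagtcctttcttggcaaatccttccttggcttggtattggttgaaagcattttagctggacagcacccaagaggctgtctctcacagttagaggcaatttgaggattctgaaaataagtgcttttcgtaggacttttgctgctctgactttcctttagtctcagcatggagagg
Abcc4 (chr14:118706170-118706469, minus strand): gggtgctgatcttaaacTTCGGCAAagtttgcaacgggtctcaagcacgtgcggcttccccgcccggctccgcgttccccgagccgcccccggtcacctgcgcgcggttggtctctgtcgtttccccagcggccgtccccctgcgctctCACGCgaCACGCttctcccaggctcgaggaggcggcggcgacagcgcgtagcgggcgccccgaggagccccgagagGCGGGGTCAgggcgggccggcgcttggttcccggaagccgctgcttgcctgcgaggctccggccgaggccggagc
The printed Slc10a1 window, set on a start 626 bases downstream of the GENCODE gene start, held 1 nuclear receptor half-site and 2 C/EBP matches. Its other window, at the GENCODE gene start, held 1 TATA box and no other match. The Slco1a4 window held 0 matches to the 8 motifs. The Abcc4 window held 1 NRF2 element core, 2 AHR site cores and 1 C/EBP match, none of them overlapping, and its other window, 29288 bases downstream, held 1 NRF2 element core alone. These are matches of letters and describe the windows alone.

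Other transporters of the same membranes were read from lists beside the members. Among the other uptake carriers, 7 of 9 could be tested and 0 were called in either direction by limma, edgeR or DESeq2 (1 lower at an unadjusted limma p under 0.05). Of 8 other canalicular transporters, 0 were called by limma or edgeR, 1 was higher at an unadjusted p under 0.05 and DESeq2 called the same gene, Abcb1b. This multidrug pump was 123 ± 37.5 and 49.1 ± 16.5 (SD, n = 4 each), a log2 fold change of 1.31 with an adjusted p of 0.0683 by limma and 0.00081 by DESeq2, and groups that did not overlap. It shares 66 windows of 50 bases with Abcb4, whose level is far higher. Of the other basolateral exporters, 4 of 5 were tested and 0 were called by limma, edgeR or DESeq2 (2 higher at an unadjusted limma p under 0.05), with Abcc5 at 0.39 (adjusted p 0.279) and Abcc1 at 0.43 (adjusted p 0.300) by limma. Of 10 scaffold and trafficking genes, 0 were called by any of these tools and 1, Slc9a3r1, was lower at an unadjusted limma p under 0.05 (log2 fold change -0.23, adjusted p 0.273).

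Receptors of bile acids and enzymes that make them did not pass the threshold by limma. Of 15 tested receptors and regulators, 0 were called by limma, edgeR or DESeq2, 2 were lower at an unadjusted limma p under 0.05, and 4 lay above 0 and 11 below. Nr1h4, which encodes the bile acid receptor FXR, was 5554 ± 403 in Brap LKO and 5433 ± 417 in Brap F/F (SD, n = 4 each). Nr1i2, which encodes PXR, was 3231 ± 176 and 4302 ± 964 (SD, n = 4 each), highest in Brap F/F replicates 2 and 3, with a log2 fold change of -0.39 and an adjusted p of 0.250 by limma, and -0.11 (adjusted p 0.561) without them. Nr1h3, which encodes LXR alpha, was 2544 ± 138 and 2919 ± 102 (SD, n = 4 each), without overlap and with an adjusted p of 0.181 by limma. Of 16 synthesis and conjugation enzymes, 0 were called by limma or edgeR, 1 was higher and 2 were lower at an unadjusted limma p under 0.05, and DESeq2 called 1, Acox2, lower. Cyp7a1, the rate-limiting enzyme of bile acid synthesis, ranged from 2752 to 17594 in Brap LKO and from 1521 to 4500 in Brap F/F. Its log2 fold change was 1.32, with an unadjusted p of 0.0327 and an adjusted p of 0.277 by limma. Without Brap F/F replicates 2 and 3 it was 1.27 (adjusted p 0.392 by limma). Acox2, a peroxisomal side-chain oxidase, had a log2 fold change of -0.28 and an adjusted p of 0.138 by limma and 0.0213 by DESeq2, with lower values in every Brap LKO liver. The lists of targets of NRF2 (9 tested), CAR and PXR (8 tested) and AHR (5 tested) held 0 genes called by limma or edgeR in either direction. At an unadjusted limma p under 0.05 the NRF2 list held 0 genes, the CAR and PXR list 2 lower and the AHR list 1 higher, and DESeq2 called Cyp2b10 (adjusted p 0.0305) lower and Cyp1b1 (adjusted p 0.00133) higher.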

How the data were processed

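Liver RNA of 8 mice (4 Brap LKO, 4 Brap F/F) was analysed. The authors extracted RNA with TRIzol and columns, made libraries with NuGEN's Universal Plus mRNA kit, aligned reads to mm10 with STAR 2.6.0c and deposited a signal for 24451 genes, the reads on each gene divided by a DESeq2 size factor. The counting tool, annotation release and use of strand are not given in the sources used here. Their table of fold changes and p-values was not used. In each liver 100% of the values were whole multiples (tolerance 0.001) of what 1 read is worth, so reads were recovered for the count tests. 187 genes have no symbol.

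The 15352 genes whose mean normalized count reached 5 were compared on log2(normalized count + 1) with limma 3.58.1 (lmFit, eBayes with trend) in R 4.3.3, without covariates, at a Benjamini-Hochberg adjusted p of 0.05 over all genes. Fold changes are on this scale, and standard errors and 95% intervals come from this fit. The lists above were read from the same fit. edgeR 4.0.16 (quasi-likelihood, 108 higher and 14 lower) and DESeq2 1.42.0 on the recovered reads were alternatives, as the deposited values are not counts. Other alternatives were the pseudocount, the filter, scaling, weights, a replicate block, the animal series and leaving livers out. Leaving out Brap F/F replicates 2 and 3 together was chosen after seeing the data. Single members were tested with two-sided exact permutation tests over 70 arrangements. limma and edgeR were tested on simulated data. Exon lengths and positions came from GENCODE M21, promoters from RefSeq.

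The members and lists were chosen with earlier results of these data known. Named are all members, Brap, marker genes, and from each list the genes past the threshold or else those with the smallest p. Some genes that this rule names are left without values, and Nr1h4 and Slc51a were added for their role. 1 gene that the rule names is not reported here. Each liver carries its own animal number, and p-values measure the spread between these livers. A count of 0 and its limit of 3 reads cover counting error only.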

Additional observations from a re-analysis of the deposited data

Results flagged for a closer look

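Abcb11 in Brap F/F replicate 4 was counted at 19372, far from the other 3 Brap F/F livers, whose values lay between 15293 and 15483. The gap to the nearest of them was 0.953 of the whole range of the group. It was the only such value in 20 groups of 4 livers examined (10 members in 2 groups), where chance gives about 1. Without this liver the log2 fold change of Abcb11 was -0.0355 in place of -0.12.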

How the results depend on the processing

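Under the alternatives tried, Slc10a1 and Slco1a4 were lower and Abcc4 and Abcb4 higher in Brap LKO in every fit. For Slc10a1, Slco1a4 and Abcc4 this follows from groups that do not overlap where the deposited scaling is kept. Scaled to the same total, Brap LKO replicate 3 no longer lay below every Brap F/F liver for Slc10a1 and Slco1a4. Adjusted p-values (limma or the count tests) were 0.0527–0.391 for Slc10a1, 0.0333–0.351 for Slco1a4, 0.173–0.833 for Abcb4 and 0.0188–0.264 for Abcc4. The number of members called higher rose from 0 to 1 (Abcc4) with the same total, with DESeq2 and without Brap F/F replicates 2 and 3. There its log2 fold change was 0.96, 0.76 and 1.17. The number called lower rose from 0 to 1 (Slco1a4) with DESeq2 (-1.67) and with a replicate block (-1.49, adjusted p 0.0382 by limma). The labels name no pairing behind the replicate numbers, and the block gave 80 genes higher and 15 lower. Same-numbered livers deviated together with correlations of -0.13, 0.0034, 0.20 and 0.29, which cannot decide whether they were paired. Brap LKO replicates 2, 3 and 4 correlated best with their own number, and Brap LKO replicate 1 did not (0.16 with Brap F/F replicate 3). Brap F/F replicates 3 and 4 also did, while Brap F/F replicates 1 and 2 did not.

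Slco1b2 turned to 0.0992 with quantile normalization, 0.135 with the same total and 0.16 without Brap F/F replicates 2 and 3. Abcb11 turned to 0.0082 and 0.0386 with the first 2 of these, and Abcc2 to 0.0329, 0.0537 and 0.0897 with all 3. Without Brap F/F replicates 2 and 3, Slco1a1 turned to -0.14 and Abcc3 to 0.38. With 1 liver left out in turn, the log2 fold change ran from -0.10 to 0.13 for Slco1a1, -0.11 to 0.0839 for Slco1b2 and -0.45 to 0.0409 for Abcc3, where leaving out Brap F/F replicate 3 turned the direction of all 3 and leaving out Brap LKO replicate 4 also turned that of Slco1b2. The range was -0.16 to -0.0355 for Abcb11 and 0.0437 to 0.19 for Abcb4, both nearest to 0 without Brap F/F replicate 4, and -0.18 to -0.0219 for Abcc2, nearest to 0 without Brap F/F replicate 3. It was -0.51 to -0.34 for Slc10a1, -1.83 to -1.17 for Slco1a4 and 0.67 to 0.98 for Abcc4. No member was called in any of these 8 fits. The cause of these turns was not tested.

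Over all genes, 102 were called higher and 16 lower. The higher count was 62 with quantile normalization, 459 with the same total, 185 with arrayWeights, 455 with DESeq2, 283 at an adjusted p of 0.1 and 10 at 0.01. The lower count was 9 with a minimum mean of 20, 39 with arrayWeights, 47 without Brap F/F replicates 2 and 3, 170 with DESeq2, 64 at an adjusted p of 0.1 and 3 at 0.01. Leaving out 1 liver gave 11 to 178 higher (178 without Brap F/F replicate 4) and 4 to 54 lower. Depth limits Slc51b, with at most 6 reads per liver.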
